A study of Mus musculus with 18 samples.

Results

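Pou5f1, Nr5a2 and Zfp42 are pluripotency genes whose array values were lower in induced pluripotent stem cells (iPSCs) than in mouse embryonic stem cells (mESCs). The 3 genes were picked by symbol, 1 probe set each, from the authors' list of probe sets at least 10-fold above the fibroblast mean in every other array, and for those lower values, so that both differences are the reason for the choice and are given as descriptions with no test. They are 3 of the 687 genes with a symbol and 3 of the 45037 probe sets analysed. The data are RNA values of 18 Affymetrix mouse expression arrays, with 3 of mouse embryonic fibroblasts (MEFs), 3 of mESC clones and 4 clones of each of 3 kinds of iPSCs. The work asked whether the adhesion protein EpCAM together with EpEX, its extracellular part, can stand in for most of the reprogramming factors.

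All 5 groups carry the same strain label, which joins B6.Cg-Gt (ROSA) 26Sortm1 (rtTA*M2), whose name ends there in Jae/J and which holds a doxycycline-dependent activator at the ROSA locus, with B6.129S4-POU5f1tm2Jae/J, which places a GFP reporter at the Pou5f1 locus itself. The sources used here give no origin of the mESC clones beyond that label, so whether they carry the reporter allele is not settled, and if they do not, the difference in Pou5f1 from mESCs cannot be told apart from that allele. MEFs came from embryos at mid-gestation, and so did the MEFs from which the iPSC groups were made. OE + EpEX iPSCs were MEFs given Oct4 and EpCAM on PiggyBac plasmids and treated with EpEX. KE + EpEX iPSCs were given Klf4 and EpCAM and treated with EpEX. OSKM iPSCs were given Oct4, Sox2, Klf4 and c-Myc without EpEX. The plasmids were induced by doxycycline at 1.5 µg/ml for 21 days on feeder cells. Whether doxycycline was still present when RNA was taken is not given in the sources used here, nor is the part of the transcript that the Pou5f1 probe set reads, so RNA from the reporter allele, the native allele and the Oct4 plasmid cannot be told apart. Oct4 was on a plasmid in OE + EpEX and OSKM cells and not in KE + EpEX cells. The MEF samples are labelled as biological replicates, while the design text speaks of a single primary culture, so their spread may be technical.

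Pou5f1 encodes Oct4, the POU-domain factor that keeps cells of the inner cell mass and embryonic stem cells pluripotent and whose level has to stay within limits. Nr5a2 encodes LRH-1, an orphan nuclear receptor that binds regulatory sequence of Pou5f1 and can take the place of exogenous Oct4 in reprogramming. Zfp42 encodes Rex1, a zinc-finger protein related to YY1, a marker of the naive state whose promoter is bound by Oct4.

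The RefSeq sequences (GRCm38.p6) of the 250 bases before the annotated start of each gene are shown with matches to short motifs, among them motifs bound by Oct4 and by Nr5a2. No motif of Rex1 was searched. For Pou5f1 and Nr5a2, which list 2 starts each, the first start is shown. Capitals mark matches, on either strand, to ATGCAAAT (the octamer bound by Oct4), AGGTCA (a nuclear receptor half-site), TCAAGG (the core of the site bound by Nr5a2), CATTGT (a SOX core), GGGCGG (a GC box) and CCACACCC (a CACC box).
Pou5f1, chr17:35505782-35506031, + strand: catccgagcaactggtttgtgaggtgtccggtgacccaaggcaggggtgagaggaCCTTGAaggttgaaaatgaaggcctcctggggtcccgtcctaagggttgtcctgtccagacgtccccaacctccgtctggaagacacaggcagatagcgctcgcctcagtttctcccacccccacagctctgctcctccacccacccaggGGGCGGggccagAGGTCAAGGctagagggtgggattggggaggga
Nr5a2, chr1:136960449-136960698, - strand: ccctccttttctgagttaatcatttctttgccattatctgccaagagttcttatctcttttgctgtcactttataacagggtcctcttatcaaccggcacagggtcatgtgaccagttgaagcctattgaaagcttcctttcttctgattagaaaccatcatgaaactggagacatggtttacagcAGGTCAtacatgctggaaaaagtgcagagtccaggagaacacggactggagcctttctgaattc
Zfp42, chr8:43307010-43307259, - strand: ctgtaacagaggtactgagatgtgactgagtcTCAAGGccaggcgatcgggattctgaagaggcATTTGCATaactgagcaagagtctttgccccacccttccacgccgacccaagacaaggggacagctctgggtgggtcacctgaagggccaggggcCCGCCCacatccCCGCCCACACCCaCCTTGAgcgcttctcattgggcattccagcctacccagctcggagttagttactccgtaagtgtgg

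In the Pou5f1 sequence, the half-site at position −33 and the Nr5a2 core at position −30 from the start overlap in the run AGGTCAAGG. A further Nr5a2 core lay on the opposite strand at −195 and a GC box at −45. The Zfp42 sequence held the octamer on the opposite strand at −186, Nr5a2 cores at −218 and, on the opposite strand, −66, GC boxes at −91 and −79, and a CACC box at −75 that overlaps the second GC box. The Nr5a2 sequence held a half-site at −64. The window before the second start of Pou5f1 held a SOX core on the opposite strand at −158, and that of Nr5a2 held none of the 6 motifs. Among 32851 promoters of the same length, 1.60% held the octamer, 14.02% the half-site, 12.5% the Nr5a2 core, 10.7% the SOX core, 32.7% the GC box and 3.20% the CACC box. These matches are letters in a window and were not measured as binding.

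Values were deposited as log2 values with the median of each probe set over the 18 arrays set to 0, so a value says how an array stands for 1 gene and levels of different genes cannot be compared. Array medians ran from −0.03 to 0.07 and array SDs from 0.19 to 1.39, and no 2 arrays were identical. The identity of the cells was read from 6 other pluripotency markers (Nanog, Sox2, Sall4, Dppa5a, Tdgf1 and Esrrb) and from 19 probe sets of 14 fibroblast genes out of a list of 20. The mean of the pluripotency markers was between −8.40 and −8.06 in MEFs, 0.03 and 0.13 in mESCs, and −0.06 and 0.27 in the 12 iPSC clones. The mean of the fibroblast markers was between 4.80 and 6.02 in MEFs, −0.70 and −0.47 in mESCs, −0.11 and 0.84 in OE + EpEX, −0.74 and 1.33 in KE + EpEX, and −0.24 and −0.000602 in OSKM clones. As the values are centred, none of these markers can be said to be at 0 signal. In bulk RNA, fewer cells that express a gene and less RNA per cell cannot be told apart.

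Pou5f1 (1417945_at) stood high in mESCs and far lower in every iPSC clone. In mESCs its log2 values were 5.62, 5.66 and 5.66, and in MEFs they were −3.27, −3.62 and −4.13. The OE + EpEX clones had values of 0.02, −0.17, 2.18 and −0.32. In the KE + EpEX clones the values were −0.26, −0.02, −0.15 and 0.02, and in the OSKM clones they were 0.24, 0.23, 0.07 and −0.03. All 12 clones thus lay between the MEF and the mESC arrays with no overlap, and 11 of them lay within 0.57 of each other, while OE + EpEX clone 3 stood apart. The means differed from mESCs by −5.22 (OE + EpEX), −5.75 (KE + EpEX) and −5.52 (OSKM) on the log2 scale, with an SE of 0.415 each, or 37.2-fold, 53.7-fold and 45.8-fold lower. In each of the 3 comparisons this was rank 1, the most negative difference of all 45037 probe sets. The shared SE pools the spread of all groups, which was unlike between them. The SD of Pou5f1 was 1.18 in OE + EpEX, 0.13 in KE + EpEX, 0.13 in OSKM, 0.43 in MEFs and 0.02 in mESCs. The SE of 0.415 thus does not describe each comparison. With each iPSC group fitted with mESCs alone, it was 0.524 (OE + EpEX), 0.101 (KE + EpEX) and 0.092 (OSKM). Without OE + EpEX clone 3, the OE + EpEX difference was −5.80. Against MEFs the same groups were 17.2-fold, 11.9-fold and 13.98-fold higher, and mESCs were 641-fold higher. The sizes depend on the scaling, as quantile normalization gave log2 differences of −3.55, −4.63 and −4.24 from mESCs and of 2.11, 1.03 and 1.42 from MEFs, with 5.66 for mESCs over MEFs. Detection in MEFs is unknown for all 3 genes. By quantitative PCR, the paper reported Oct4 RNA in OSKM iPSCs as comparable to mESCs. For OE + EpEX and KE + EpEX iPSCs it reported Oct4 and REX (Zfp42) RNA as equivalent to mESCs. It also described Oct4 protein as similar by Western blot, and Oct4 as comparable to mESCs by flow cytometry (OE + EpEX and KE + EpEX) and immunofluorescence. The Oct4 promoter was reported to be methylated in iPSCs much as in mESCs. From the arrays, the paper described the global profiles of iPSCs and mESCs as similar. The array values given here come from a single probe set per gene, and why they differ from the PCR and protein assays was not tested.

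On a scale that runs from the MEF mean at 0% to the mESC mean at 100%, in log2 units, the clones took positions of 36.0% to 62.9% for Pou5f1, with a median of 39.4%. As a linear share of the mESC mean this was 1.60% to 9.08%, with a median of 1.998%. The highest of these values belonged to OE + EpEX clone 3 and the lowest to OE + EpEX clone 4, so the same group held both ends.

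Nr5a2 (1420410_at) was also lower in every iPSC clone than in every mESC array, by a smaller step. Its values were 1.75, 1.86 and 1.62 in mESCs and −4.38, −4.17 and −3.91 in MEFs. The OE + EpEX clones read −0.05, −0.11, 0.36 and 0.45, and the KE + EpEX clones read 0.25, 0.37, 0.05 and 0.52. The OSKM clones read −0.09, −0.28, −0.34 and −0.38 and were the lowest iPSC group for this gene. Compared with mESCs the means differed by −1.58, −1.45 and −2.02 in OE + EpEX, KE + EpEX and OSKM (SE 0.153 each), or 2.99-fold, 2.73-fold and 4.04-fold lower. Over MEFs they were 19.9-fold, 21.9-fold and 14.8-fold higher. After quantile normalization the log2 differences over MEFs were 1.60, 1.83 and 0.81, and 3.30 for mESCs, and OSKM differed from mESCs by −2.48. Positions between MEFs and mESCs ran from 64.0% to 79.2%, with a median of 70.4%, and linear shares of the mESC mean from 22.9% to 42.7%.

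Zfp42 (1418362_at) had the widest span between MEFs and mESCs of the 3 genes, 10.05 on the log2 scale, against 9.32 for Pou5f1 and 5.90 for Nr5a2. Its values were −7.94, −8.21 and −8.31 in MEFs and 1.95, 1.94 and 1.81 in mESCs. In OE + EpEX clones they were −0.07, −0.24, 0.50 and 0.30, in KE + EpEX clones 0.43, 0.43, 0.05 and −0.05, and in OSKM clones 0.09, −0.10, −0.09 and −0.13. The clones of the 3 groups overlapped each other and none reached the mESC arrays. The differences from mESCs were −1.78, −1.68 and −1.96 (SE 0.165 each), or 3.43-fold, 3.21-fold and 3.88-fold lower, and those from MEFs were 8.28, 8.37 and 8.10 on the log2 scale. After quantile normalization the latter were 3.23, 3.44 and 2.94, with 5.13 for mESCs over MEFs, and OSKM differed from mESCs by −2.18. Positions ran from 78.7% to 86.1%, with a median of 81.1%, and linear shares of the mESC mean from 22.7% to 37.9%.

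**Figure D1:**
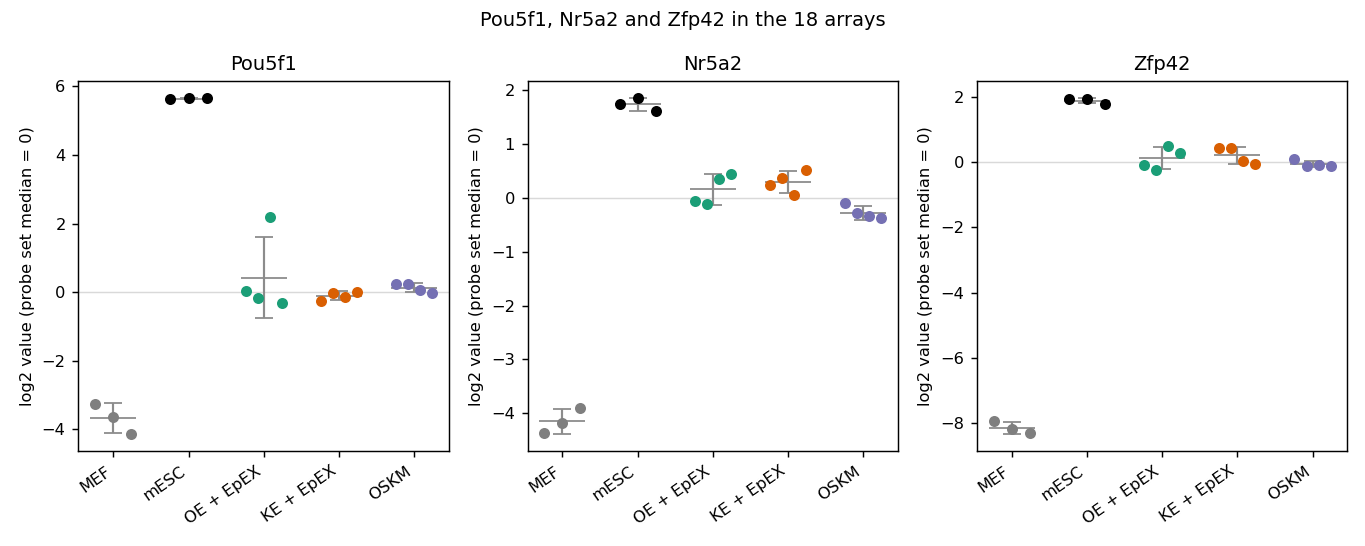
Log2 value (vertical axis, median of each probe set over 18 arrays set to 0; the scale differs between panels) of Pou5f1, Nr5a2 and Zfp42 in each array, with 3 MEF, 3 mESC and 4 arrays of each iPSC group; points are arrays, horizontal marks are group means and bars are SD. The iPSC clones sit between the MEF and mESC arrays for each gene, and OE + EpEX clone 3 stands at 2.18 for Pou5f1.

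The same pattern was not rare. All 12 iPSC clones were below every mESC array in 6.64% of all probe sets, and below every mESC array and above every MEF array in 2.04%. Within the 477 listed probe sets higher than MEFs, from which the genes were taken, 66 (13.8%) had all clones below every mESC array. The threshold of that list passed close to Pou5f1, whose lowest fold over the MEF mean was 10.2, in OE + EpEX clone 4. For Nr5a2 the lowest fold was 13.7, and for Zfp42 it was 241. At the edge of the list, 1429270_a_at stood just inside at 10.03 and 1452730_at just outside at 9.97.

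Of the other pluripotency genes, few were called against mESCs by limma with a minimum difference. Lists of 16 other core factors, 22 Oct4 and Sox2 targets and markers and 8 genes of primed pluripotency held 32 genes with a symbol, in 46 probe sets. A probe set was called where limma's adjusted p was below 0.05 and the log2 values differed by 1 or more. Against mESCs, 2 of the 46 were called higher and 0 lower in OE + EpEX, where 1.75% of all probe sets were called higher and 1.2% lower (2.95% in all). In KE + EpEX 1 was called higher and 1 lower, with 1.74% and 1.71% of all probe sets (3.45% in all). In OSKM 3 were called higher and 0 lower, with 1.58% and 1.7% (3.28% in all), so the 2, 2 and 3 called of 46 are shares near the background. On the adjusted p alone, limma gave 4, 3 and 9 of the 46, where 8.46%, 10.6% and 10.6% of all probe sets passed. The methods' t-test gave 2, 1 and 20, where 1873, 2014 and 8570 of all 45037 probe sets passed. These counts were unstable: in OE + EpEX 0 were called without mESC array 1 or 3 or without OE + EpEX clone 1, 2 or 3, and in KE + EpEX 1 was called without mESC array 1, 2 or 3 or without KE + EpEX clone 1 or 2, and 5 without KE + EpEX clone 4. The median difference of the 46 was 0.09, 0.09 and 0.10, against medians of −0.05, −0.02 and −0.02 over all probe sets.

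Among the core factors, limma called 0 of 16 probe sets in any of the 3 comparisons, also on the adjusted p alone, which 8.46%, 10.6% and 10.6% of all probe sets passed. Unadjusted p under 0.05 by limma was seen for 2, 4 and 3 of the 16, and for 9584, 9784 and 10017 of all 45037 probe sets. The methods' t-test gave 0, 1 and 4 of the 16 with an adjusted p under 0.05, against 1873, 2014 and 8570 of all probe sets. In OE + EpEX, KE + EpEX and OSKM cells, in this order, Nanog, the homeodomain factor at the centre of the network, differed from mESCs by 0.28, 0.37 and −0.02 (limma adjusted p = 0.257, 0.105 and 0.976). Sox2, the partner of Oct4 on composite sites, differed by −0.33, −0.29 and −0.34 (SE 0.510, limma adjusted p = 0.788, 0.845 and 0.802). The SE of Sox2 takes in an SD of 1.82 in MEFs. Its SD was 0.12 in mESCs and 0.22, 0.27 and 0.083 in the iPSC groups, so these p-values do not show Sox2 to be unchanged. For Esrrb, an orphan nuclear receptor of the naive state, the differences were −0.08, 0.15 and 0.09. Nr0b1, which encodes Dax1 and is a target of Nr5a2, differed by −0.36, −0.38 and −0.05. Sall4, a zinc-finger partner of Oct4, differed by 0.12, 0.19 and 0.26. Values for the core factors Tfcp2l1, Klf5, Tbx3, Prdm14, Tcl1 and Tet1 lay between −0.62 and 0.87.

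The genes that passed were of other kinds. Dnmt3b, a de novo DNA methyltransferase, exceeded mESCs at its 2 probe sets by 1.09 and 1.03 in OE + EpEX and by 1.59 and 1.49 in OSKM (limma adjusted p = 0.0311, 0.0476, 0.00225 and 0.00431). Its cofactor gene Dnmt3l was higher in OSKM by 1.28 (limma adjusted p = 0.0345). Dppa3, the maternal factor Stella, was higher in KE + EpEX by 1.42 (limma adjusted p = 0.0437). Lin28a, an RNA-binding protein that blocks let-7 maturation, was lower in KE + EpEX by a log2 difference of −1.37 (limma adjusted p = 0.00284). Epcam, which was also on the plasmids of 2 of the groups, was higher by 0.86, 0.58 and 0.54 in OE + EpEX, KE + EpEX and OSKM (limma adjusted p = 0.00252, 0.0285 and 0.0418), all below a difference of 1. On the adjusted p alone, L1td1 was also lower in OE + EpEX (−0.49), while in OSKM both probe sets of Dppa2 (0.69 and 0.77) and of Nodal (0.91 and 0.80) were higher and Cdh1 was lower (−0.50).

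The other gene lists had few members with a symbol. Among genes of trophoblast and endoderm that Oct4 holds back, Tfap2c and Pdgfra were named, 2 of 14, and 0 of their 4 probe sets were called by limma. An unadjusted p under 0.05 by limma was seen for 2, 2 and 1 of the 4, and for 9584, 9784 and 10017 of all 45037 probe sets. Tfap2c, a trophoblast and germ-line factor, differed by 0.68, 0.70 and 0.33 at 1418147_at (limma adjusted p = 0.0261, 0.0196 and 0.313) and by 0.46, 0.61 and 0.11 at 1436392_s_at (limma adjusted p = 0.127, 0.0338 and 0.821). At 1448977_at its differences were 0.22, 0.23 and −0.03, with no adjusted p under 0.05. Pdgfra, a growth factor receptor of primitive endoderm and mesenchyme, differed by −0.60, −1.10 and −1.74 (limma adjusted p = 0.619, 0.297 and 0.0674). Nr2f2 was the 1 other nuclear receptor of 13 with a symbol, and differed by 0.52, 0.23 and −0.14 with no adjusted p under 0.05. Of the fibroblast markers, 1 of 19 probe sets passed in each group: Col6a3, a collagen chain, was higher than in mESCs by 1.86, 1.32 and 1.24 (limma adjusted p = 0.00222, 0.0188 and 0.0260). Over all probe sets 1.75%, 1.74% and 1.58% were called higher. In KE + EpEX 0 of the 19 were called without mESC array 1 or 2 or KE + EpEX clone 1, 2 were called without KE + EpEX clone 3 and 3 without KE + EpEX clone 4. In OSKM 0 were called without mESC array 1 or 2 or without OSKM clone 1, 2 or 3.

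**Figure D2:**
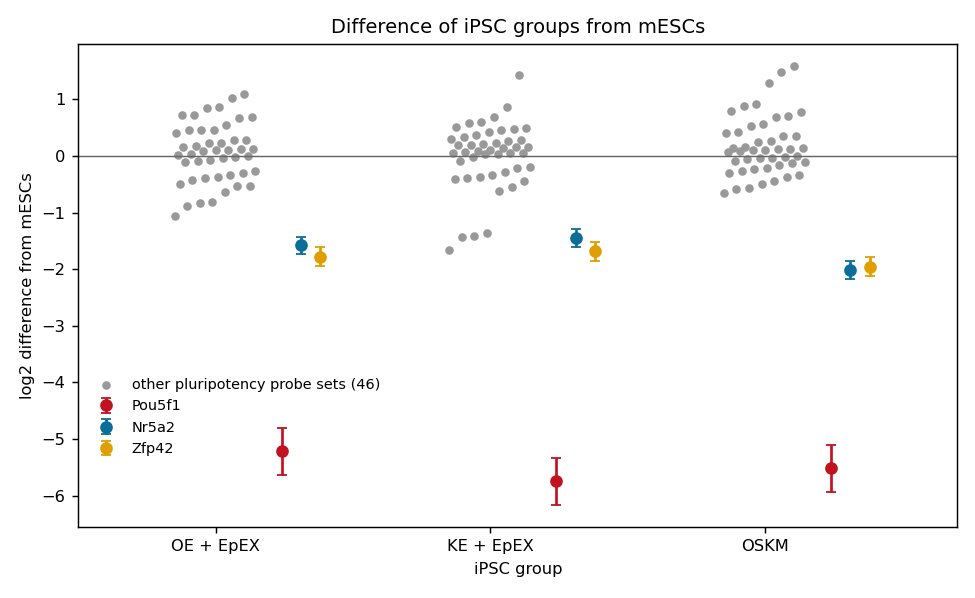
Log2 difference from the mESC mean (vertical axis) in each iPSC group; coloured points are Pou5f1, Nr5a2 and Zfp42 with their standard errors, and grey points are the 46 probe sets of the other pluripotency lists, spread sideways for legibility. Pou5f1 lies between −5.22 and −5.75, below all grey points, which reach up to 1.59.

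Comparisons among the iPSC groups did not enter the choice of the genes and were tested. For 9 comparisons of 3 genes, limma over all probe sets called 0. An unadjusted p under 0.05 was found for 2 of the 9, both for Nr5a2, and the exact permutation test gave 1 of 9. The rule called 0.0444% of all probe sets for OE + EpEX against OSKM, where 5166 of 45037 had an unadjusted p under 0.05 by limma. For KE + EpEX against OSKM and OE + EpEX against KE + EpEX it called 0.0%, where 3479 and 2446 of 45037 had an unadjusted p under 0.05 by limma.

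Nr5a2 was lower in OSKM than in the other iPSC groups by 0.43 and 0.57, without passing the test. Its mean was 0.16 ± 0.28 (SD, n = 4) in OE + EpEX, 0.30 ± 0.20 (SD, n = 4) in KE + EpEX and −0.27 ± 0.13 (SD, n = 4) in OSKM. KE + EpEX exceeded OSKM by 0.57 (95% interval 0.27 to 0.87, limma adjusted p = 0.277), and the clones of the groups did not overlap, as was so in 7.34% of all probe sets, 3.33% with KE + EpEX higher. The two-sided exact permutation test gave p = 0.0286, the smallest it can give with 4 clones against 4, and 0.257 after adjustment over the 9 tests. Over the alternative settings the limma adjusted p ranged from 0.0125 to 0.869. Quantile normalization of the deposited values moved the difference to 1.02 (limma adjusted p = 0.0125), which passed the rule, so this call depends on the scaling. That normalization gives every array the same spread, while the SDs of the deposited arrays ran from 0.19 to 1.39. With that normalization OE + EpEX against OSKM also had an adjusted p of 0.0296 by limma, below the minimum difference. OE + EpEX exceeded OSKM by 0.43 (95% interval 0.13 to 0.73, limma adjusted p = 0.230, exact permutation p = 0.0571), with OSKM clone 1 above OE + EpEX clone 2. OE + EpEX and KE + EpEX differed by −0.13 (95% interval −0.43 to 0.17).

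Pou5f1 was higher in OE + EpEX than in OSKM by 0.30 (95% interval −0.51 to 1.12, limma adjusted p = 0.838), and this rested on 1 clone. Without OE + EpEX clone 3 the difference was −0.28, and the difference from KE + EpEX turned from 0.53 to −0.06. KE + EpEX differed from OSKM by −0.23 (95% interval −1.04 to 0.59, limma adjusted p = 0.978, exact permutation p = 0.0857). KE + EpEX cells, which received no Oct4 plasmid, and OSKM cells, which did, had values within 0.50 of each other over all 8 clones, and the interval does not show that they are alike. That interval takes its spread from all groups, with an SE of 0.385. With KE + EpEX and OSKM alone in the fit, the SE was 0.098 and the limma adjusted p was 0.387.

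For Zfp42 the differences were 0.18 for OE + EpEX and 0.27 for KE + EpEX against OSKM (95% intervals −0.15 to 0.50 and −0.05 to 0.59, limma adjusted p = 0.725 and 0.743, exact permutation p = 0.343 and 0.114). OE + EpEX and KE + EpEX differed by −0.09 (95% interval −0.42 to 0.23). From lowest to highest mean the order was therefore MEF, OSKM, OE + EpEX, KE + EpEX and mESC for Nr5a2 and for Zfp42, and MEF, KE + EpEX, OSKM, OE + EpEX and mESC for Pou5f1. On the deposited values no neighbouring iPSC groups had a limma adjusted p under 0.05, though the 95% interval of Nr5a2 for OE + EpEX against OSKM lay above 0.

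**Figure D3:**
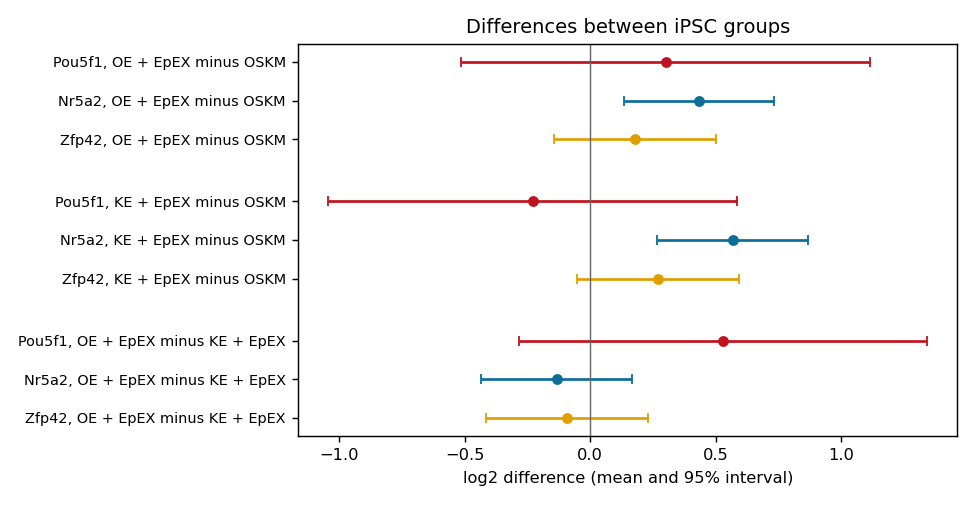
Log2 differences between iPSC groups (horizontal axis) for Pou5f1, Nr5a2 and Zfp42, with points for the limma estimate and bars for its 95% interval. The intervals of Nr5a2 for OE + EpEX and KE + EpEX against OSKM lie above 0, the others include 0, and none has an adjusted p under 0.05.

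The OE + EpEX clone 3 stood apart for Pou5f1 more than for most of the array. Its value was 2.16 above the next clone of its group, a gap that the highest clone of OE + EpEX reached in 30 probe sets (0.0666%). The SD of Pou5f1 in OE + EpEX, 1.18, was at percentile 99.7 of all probe sets, where the median SD was 0.15. In KE + EpEX and OSKM the SD of Pou5f1 was 0.13 in both, at percentiles 32.3 and 60.2. Clone 3 was also the highest of its group for Zfp42, 0.51 above the mean of the other clones, and for Nr5a2 it was 0.26 above that mean but below clone 4. Among the 46 pluripotency probe sets it was the highest clone in 16 (34.8%), and among all probe sets in 29.1%.

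Whether clones that were high for one gene were high for another was examined over the 12 iPSC clones, for 3 pairs of genes. Nr5a2 and Zfp42 moved together, with Pearson r = 0.69 (permutation p = 0.0161, adjusted over 3 pairs 0.0484) and Spearman rho = 0.71 (permutation p = 0.0119, adjusted 0.0358). Without the 2 clones farthest from the Nr5a2 median, KE + EpEX clone 4 and OE + EpEX clone 4, r was 0.89. After subtracting group means r was 0.61 and its adjusted permutation p was 0.0955. Within groups of 4 clones r was 0.92 in OE + EpEX, 0.97 in OSKM and −0.07 in KE + EpEX, where clone 4 had the highest Nr5a2 value and the lowest Zfp42 value of its group. Without the OE + EpEX clones r was 0.61 and without the OSKM clones 0.60, with adjusted permutation p of 0.297 and 0.357.

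The level of fibroblast markers moved with these clones. In KE + EpEX the mean of the markers was 1.33 and 0.49 in clones 1 and 2, which had the higher Zfp42 values, and −0.62 and −0.74 in clones 3 and 4. In OE + EpEX it was 0.05 and −0.11 in clones 1 and 2 and 0.29 and 0.84 in clones 3 and 4, which had the higher Zfp42 values. OSKM clone 1, the highest of its group for Zfp42, also had the highest marker mean of that group, −0.000602, against −0.18, −0.20 and −0.24. Over the 12 clones the marker mean had r = 0.72 with Zfp42 (permutation p = 0.00629, adjusted over 3 genes 0.0189) and rho = 0.64 (permutation p = 0.0295, adjusted 0.0885). With Nr5a2, r was 0.37 (permutation p = 0.241, adjusted 0.362) and rho 0.35 (permutation p = 0.267, adjusted 0.4002), and with Pou5f1, r was −0.02 (permutation p = 0.955, adjusted 0.955) and rho −0.20 (permutation p = 0.526, adjusted 0.526). Without KE + EpEX clone 1 and OE + EpEX clone 4, the farthest from the marker median, r was 0.62, 0.10 and 0.42 for Zfp42, Nr5a2 and Pou5f1. These 3 relations were added after the values were seen, and how much of the relation between Nr5a2 and Zfp42 goes with the markers was not tested.

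For Pou5f1 no relation with the other genes passed the test over the 12 clones, and the values changed with the way they were taken. With Nr5a2, r was 0.16 (permutation p = 0.728) and rho was −0.22 (permutation p = 0.488). With Zfp42, r was 0.40 (permutation p = 0.212) and rho 0.03 (permutation p = 0.922). Without OE + EpEX clones 3 and 4, the farthest from the Pou5f1 median, r became −0.33 with Nr5a2 and −0.26 with Zfp42. Of the 12 clones, clone 3 had the highest Pou5f1 value and clone 4 the lowest. Both were above the median of the 12 clones for Nr5a2 and for Zfp42. The relation without clone 3 alone was not taken. With group means subtracted, r was 0.35 with Nr5a2 (permutation p = 0.292) and 0.52 with Zfp42 (permutation p = 0.0637, adjusted 0.0955). Within OE + EpEX, KE + EpEX and OSKM, with 4 clones each, r was 0.37, 0.67 and 0.80 with Nr5a2 and 0.69, −0.41 and 0.65 with Zfp42.

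**Figure D4:**
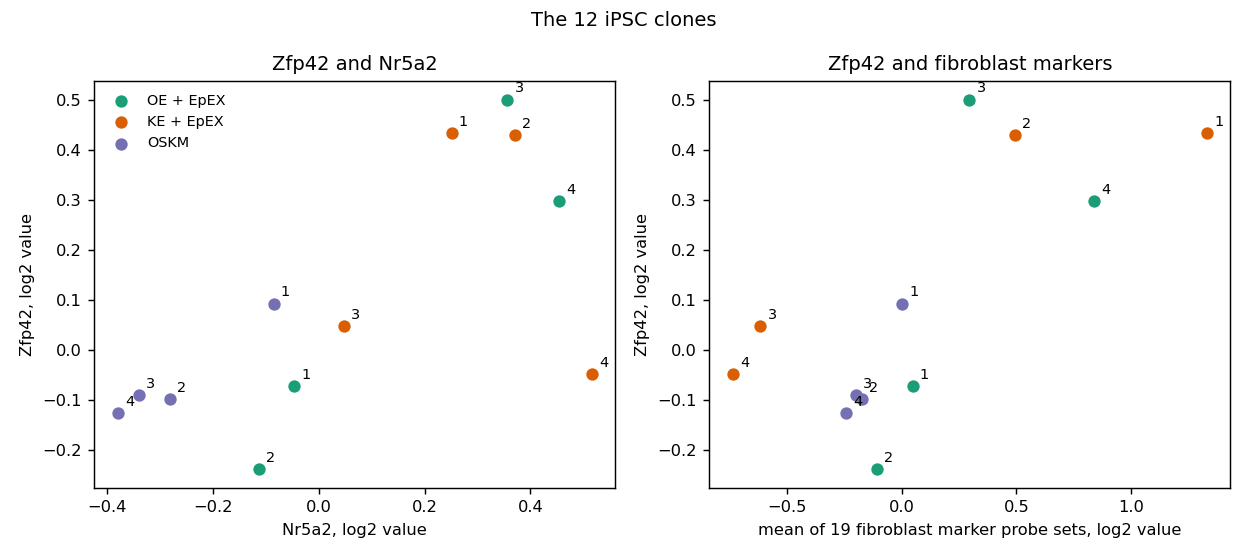
Zfp42 log2 value (vertical axes) against the Nr5a2 log2 value (left) and against the mean log2 value of 19 fibroblast marker probe sets (right) in the 12 iPSC clones; colours are groups and digits are clone numbers. Clones with higher Nr5a2 tend to have higher Zfp42 (r = 0.69), with KE + EpEX clone 4 as the exception, and the marker mean is highest, at 1.33, in KE + EpEX clone 1.

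Genes with a like pattern were ranked by Pearson r with each gene over the 15 mESC and iPSC arrays, among the probe sets with 1 symbol. The step between mESCs and iPSCs enters every one of these values, so they are a description with no test. Triml1, a tripartite-motif gene that is 2 places from Zfp42 in the RefSeq gene order of chromosome 8, was the nearest to Zfp42 (r = 0.98) and to Pou5f1 (r = 0.98), and the third for Nr5a2 (r = 0.95). Its values were 1.72, 1.88 and 1.71 in mESCs. In OE + EpEX clones they were −0.04, −0.20, 0.62 and 0.09, in KE + EpEX clones 0.23, 0.04, −0.33 and 0.10, and in OSKM clones 0.04, −0.08, −0.07 and −0.28. OE + EpEX clone 3 was thus the highest clone for Triml1 too. Of the 5 genes on each side of Pou5f1, Nr5a2 and Zfp42 in that order, Triml1 and Lhx9 were those with a symbol here, so the other neighbours were not analysed.

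Zfp42 was nearest to Nr5a2 (r = 0.96) and second for Pou5f1 (r = 0.95). The remaining genes ranked for Pou5f1 were Depdc1b, Aass, an enzyme of lysine breakdown, and Sap30, a subunit of the Sin3 deacetylase complex. For Nr5a2 they were Wdr76, Sfrp2, a secreted Wnt antagonist, and Mcm10, a replication factor. For Zfp42 they were Nr5a2, Pou5f1, Wdr76 and Fgfrl1, an FGF receptor without a kinase domain. In MEFs, which the ranking left out, Sfrp2 read 1.55, 8.56 and 8.55, against 2.78, 2.55 and 2.61 in mESCs, and Fgfrl1 read 2.06, 5.57 and 5.47, against 0.96, 0.61 and 0.96. MEF array 1 thus stood apart from the other MEF arrays for both genes, and it also had the lowest mean of the fibroblast markers, 4.80 against 6.02 and 6.00. Over the 12 iPSC clones alone, 0 of the 5 genes ranked for each of the 3 were among its top 5.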

How the data were processed

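The 18 RNA samples were hybridised to Affymetrix mouse expression arrays. The authors analysed the scans with GeneSpring GX and deposited log2 values, with each probe set centred on its median over all arrays. The submitters' processing notes name MAS5 and RMA without a role. Detection and depth are therefore unknown, and the number of arrays limits the precision. Groups came from the sample labels. Control probe sets (64) were left out and 45037 were analysed. Symbols came from 2 lists by the authors, of probe sets 10-fold or more from the MEF mean (931 probe sets, 904 with 1 symbol). The fold columns of these lists hold the authors' own comparisons and were not used.

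Group means were fitted with limma 3.58.1 (R 4.3.3; lmFit, eBayes) on all 18 arrays, with Benjamini-Hochberg adjustment within a comparison; a call needed an adjusted p below 0.05 and log2 values that differed by 1 or more. The fit was tested on simulated data. Single genes were compared between iPSC groups with exact permutation tests over 70 splits, and relations with permutation tests, those with the fibroblast markers added after the values were seen (scipy 1.17.1, Python 3.11.15). The labels call the iPSC samples of a group biological replicates, and the paper gives 4 clones for each iPSC group, so p-values measure the spread between clones. The genes, the gene lists and the tests were chosen with earlier results of these data known. Named were the 3 genes, core factors, list genes past the test and the 5 probe sets most alike to each gene. Values of 1 core factor are not reported here. Fibroblast markers were collagens and other genes of mesenchymal cells. Lists for nuclear receptors and for relatives of Zfp42 and X inactivation had 1 gene each with a symbol; the latter, with 3 probe sets, had no adjusted p under 0.05. Alternatives were quantile normalization, centring each array, other limma options, the methods' t-test, a block for the replicate number, the probe sets with the larger spread and leaving out each array.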

Additional observations from a re-analysis of the deposited data

Results flagged for a closer look

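Of the 9 sets of 4 clones, 1 for each gene and iPSC group, 2 held a clone whose gap to the nearest other clone, divided by the whole range of the group, was above Dixon's 95% critical value, where chance gives about 1 in 20, or 0.45 of 9. For Pou5f1 this was OE + EpEX clone 3, at 2.18 (ratio 0.861). For Zfp42 it was OSKM clone 1, at 0.0931 (ratio 0.837), in a group whose whole range was 0.22.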

How the results depend on the processing

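The differences of the 3 genes from mESCs kept their direction under quantile normalization, centring each array, the replicate block, the probe sets with larger spread, a fit of the compared groups alone and leaving out arrays, and those from MEFs under quantile normalization, centring and leaving out arrays, the alternatives run. Quantile normalization, applied to values that were already centred, moved many of them, and the cause was not tested. It gave the same spread to arrays whose SDs ran from 0.19 to 1.39, so its sizes are not an equal alternative to the deposited scale. Pou5f1 then differed from mESCs by −3.55 (OE + EpEX), −4.63 (KE + EpEX) and −4.24 (OSKM), Nr5a2 in OSKM by −2.48 and Zfp42 in OSKM by −2.18. Against MEFs, Pou5f1 differed by 2.11, 1.03 and 1.42 in the same order and by 5.66 in mESCs, Nr5a2 by 1.60, 1.83, 0.81 and 3.30, and Zfp42 by 3.23, 3.44, 2.94 and 5.13. Positions between MEFs and mESCs became 18.2% (KE + EpEX) and 25.1% (OSKM) for Pou5f1, 48.4%, 55.5% and 24.7% for Nr5a2 and 63.1%, 67.1% and 57.4% for Zfp42. Among comparisons of iPSC groups, the call that changed was Nr5a2 in KE + EpEX against OSKM (1.02).

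Leaving out 1 array turned Pou5f1 in OE + EpEX against OSKM (−0.28 to 0.55) and against KE + EpEX (−0.056 to 0.78), and Zfp42 in OE + EpEX against KE + EpEX (−0.22 to 0.026, the highest without OE + EpEX clone 2). The relation of Pou5f1 with Nr5a2 was −0.22 by rho, −0.33 without the 2 farthest clones and −0.41 without OE + EpEX clones, and that with Zfp42 was −0.26 and −0.50 under the latter 2. It was higher, without passing the test, at r = 0.35 (Nr5a2) and 0.52 (Zfp42) with group means subtracted, 0.39 and 0.69 without KE + EpEX clones, and 0.20 and 0.42 without OSKM clones. The relation of Nr5a2 with Zfp42 missed the threshold at r = 0.61 with group means subtracted, 0.61 without OE + EpEX clones and 0.60 without OSKM clones.

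Of the 46 pluripotency probe sets, 2, 2 and 3 were called against mESCs for OE + EpEX, KE + EpEX and OSKM. With 1 array left out they were 0 to 2, 1 to 5 and 2. The methods' t-test gave 15, 8 and 24 before adjustment, 2, 1 and 20 after it, and 0, 0 and 3 with the minimum difference as well. Over all 45037 probe sets that t-test gave 10165, 9288 and 14027 before adjustment. It gave 1873, 2014 and 8570 after it, and 714, 767 and 1705 with the minimum difference as well. Without the minimum difference limma gave 4 in OE + EpEX and 9 in OSKM, where 3808 and 4782 of all probe sets passed. After quantile normalization OSKM had 8, and the rule then called 3030 of all probe sets for OSKM against mESCs. Same-numbered samples did not pair: 3 of 33 pairs had a correlation of deviations above 0.1, and with the replicate number as a block KE + EpEX had 1 call, Nr5a2 in KE + EpEX against OSKM stayed at 0.57 (limma adjusted p = 0.381), and no call on the 3 genes changed. Over all probe sets, the 20 called for OE + EpEX against OSKM became 0 with the block and 1523 after quantile normalization, which also called 831 for KE + EpEX against OSKM.

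Centred values allow no filter on dim probe sets, so the more variable probe sets were taken. A single probe set per gene and 3 or 4 arrays per group limit the precision.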
